A study of Mus musculus with 4 samples.

Results

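Voltage-gated sodium channels, voltage-gated calcium channels, the hyperpolarisation-activated HCN channels and the sodium leak channel NALCN were examined as 1 gene group. Its members were all gene symbols of the table that name a sodium channel alpha (Scn1a and the like) or beta subunit, a calcium channel alpha1, beta or alpha2delta subunit, an HCN channel or Nalcn. This gave 36 of 32681 genes. Of these, 30 passed the filter on low reads and were tested, and 6 were too low to test. The libraries came from primary neuron cultures of neocortex, taken from wild-type CD-1 mouse embryos at embryonic day 13 and grown in Neurobasal medium with B27. In 2 cultures a control short hairpin RNA (shRNA) had been transfected, and in 2 an shRNA against DcpS, which hydrolyses the cap structure left over once an mRNA has been degraded from its 3′ end. Both DcpS shRNA libraries carry the same hairpin label, and no other hairpin against DcpS is named. Effects of lower Dcps and of the hairpin's own sequence therefore cannot be told apart here. No other allele or agent is named in the labels, and the share of cells that took up the shRNA is not stated. Whether the cultures of a group had separate animals as their source is not stated either, so the p-values cover the spread between these libraries only, and that spread may be technical.

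Sodium channel alpha subunits form the pore that carries the rising phase of the action potential, and beta subunits are single-pass adhesion-type proteins that set their gating and surface level. Calcium channel alpha1 subunits fall into L-type, P/Q-, N- and R-type and low-voltage T-type pores. The cytoplasmic beta and extracellular alpha2delta subunits help the high-voltage pores reach the membrane. HCN channels open on hyperpolarisation and bind cyclic AMP, and NALCN passes a background sodium leak. In immature cortical neurons Scn3a and Scn2a are the prominent sodium channels, Scn1a and Scn8a increase later, and calcium entry also shapes migration and dendrite growth.

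The libraries held 17754768 to 21793685 reads, of which 22288 to 28337 lay in the 36 channel genes. Values below are normalised read counts, the deposited reads divided by 1 size factor per library. Dcps was at 499.8 and 506.6 under control shRNA, against 114.5 and 119.6 under DcpS shRNA, so the targeted transcript was 23.3% of its control mean (log2 fold change −2.10, SE 0.11, limma, Benjamini-Hochberg adjusted p 1.52e-08). A gene was called at an adjusted p under 0.05 over all 18110 genes tested. By that rule 3.65% of all genes were lower, 2.14% higher and 5.79% either. Of the 30 tested channel genes 6 were lower (Scn3a, Scn2a, Cacna1e, Cacna1g, Cacna1i and Hcn4), 1 was higher and 23 were not called. In 14 of the 30 both DcpS shRNA libraries lay below both controls and in 5 both lay above, where this held for 24.0% and 24.4% of all genes (48.4% in either direction). The median log2 fold change of the 30 was −0.10, against 0.00 over all genes tested. Members were kept only where reads were high enough, so these counts describe the 30 genes and not the whole family. Scn7a, which is among the 14, was kept by the filter through its control reads, so its direction was favoured in advance.

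A 7-base word was looked for in the transcripts because it was seen, in an earlier look at these data, in the Dcps transcript and in the 3′ untranslated region (UTR) of many genes lower under DcpS shRNA. The words were ACGTGCA and CACGTGC, which overlap in Dcps, and the transcript strand alone was scanned. In GENCODE M21, 33.1% of the 646 lower genes with an annotated 3′ UTR held either word, against 8% of the 13708 tested genes scanned. Among genes not called the share was 6.77%. The words were picked from these same lower genes, so this difference is not a test of them. The length of the 3′ UTR was not taken into account. Among the 6 lower channel genes only Cacna1e held one. The sites are shown with the word in capitals, from the transcript sequences of that release.
Dcps, 3′ UTR of Dcps-202: tatcacctgCACGTGCatttcacag
Cacna1e, 3′ UTR of Cacna1e-201: attataaagCACGTGCctccacaag
The word in Cacna1e began at base 5662 of a 3′ UTR of 5874 bases. Scn3a, Scn2a, Cacna1g, Cacna1i and Hcn4 held neither word in any annotated 3′ UTR. Scn4a, which was too low to test, was the other member that held one.

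Promoter windows were set side by side for the lower genes that have one. RefSeq windows on GRCm38.p6, each from 250 bases before to 50 after an annotated start, matched 26 of the 36 members with 36 windows, and 2 of the 6 lower genes (Scn3a and Cacna1g) had no entry. The capitals mark matches, on either strand, to the TATA box word TATAAA, the GC box word GGGCGG, the CCAAT box word CCAAT or the E-box word CACGTG. The E-box word is the start of one of the 7-base words above. The Cacna1e window lies at an inner start, since the gene annotated in GENCODE M21 begins at 154884501 on the minus strand.
Scn2a, outer start, chr2:65620519-65620818, plus strand: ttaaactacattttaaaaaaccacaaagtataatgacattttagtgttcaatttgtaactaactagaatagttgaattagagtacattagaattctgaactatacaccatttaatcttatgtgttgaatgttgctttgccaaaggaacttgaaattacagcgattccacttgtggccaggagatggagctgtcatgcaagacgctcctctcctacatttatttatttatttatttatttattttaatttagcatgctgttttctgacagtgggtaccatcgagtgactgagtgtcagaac
Scn2a, inner start, chr2:65668436-65668735, plus strand: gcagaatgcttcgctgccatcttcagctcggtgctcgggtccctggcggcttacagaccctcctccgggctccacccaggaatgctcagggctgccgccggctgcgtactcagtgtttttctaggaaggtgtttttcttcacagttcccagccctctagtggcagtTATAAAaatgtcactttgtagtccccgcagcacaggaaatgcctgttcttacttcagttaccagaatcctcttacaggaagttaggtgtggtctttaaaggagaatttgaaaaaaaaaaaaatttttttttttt
Cacna1i, chr15:80286988-80287287, plus strand: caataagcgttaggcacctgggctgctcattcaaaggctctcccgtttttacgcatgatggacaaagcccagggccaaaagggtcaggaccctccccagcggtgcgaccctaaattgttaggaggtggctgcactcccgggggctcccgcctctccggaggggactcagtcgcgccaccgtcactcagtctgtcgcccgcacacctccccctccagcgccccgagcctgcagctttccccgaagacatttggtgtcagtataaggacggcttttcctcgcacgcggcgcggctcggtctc
Cacna1e, chr1:154725871-154726170, minus strand: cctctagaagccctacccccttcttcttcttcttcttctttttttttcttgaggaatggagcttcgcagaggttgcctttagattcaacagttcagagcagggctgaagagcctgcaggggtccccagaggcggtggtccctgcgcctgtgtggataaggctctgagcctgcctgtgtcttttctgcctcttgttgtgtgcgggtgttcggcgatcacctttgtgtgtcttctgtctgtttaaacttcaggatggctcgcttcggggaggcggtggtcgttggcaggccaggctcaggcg
Hcn4, chr9:58822699-58822998, plus strand: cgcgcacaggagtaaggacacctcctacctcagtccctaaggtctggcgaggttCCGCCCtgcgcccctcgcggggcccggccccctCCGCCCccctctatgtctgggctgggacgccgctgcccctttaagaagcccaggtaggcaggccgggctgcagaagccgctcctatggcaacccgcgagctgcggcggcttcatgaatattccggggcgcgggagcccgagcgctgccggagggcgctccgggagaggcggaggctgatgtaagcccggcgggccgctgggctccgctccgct
Only the inner start of Scn2a held TATAAA, which is in 13.6% of all 32851 windows, and only Hcn4 held GGGCGG, which is in 35.7%. CCAAT, found in 37.4% of all windows, and CACGTG, found in 7.15%, were in none of these 5 windows. The windows ran from 33.0% GC at the outer start of Scn2a to 71.7% GC in Hcn4.

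Among sodium channel alpha subunits, Scn3a and Scn2a were lower. Scn3a, the alpha subunit typical of embryonic brain (chromosome 2, 65457118 to 65567627, minus strand, GRCm38), had 1368 and 1353 normalised reads under control shRNA, against 1053 and 957.7 under DcpS shRNA. Both DcpS shRNA libraries lay below both controls. Group means were 1360 ± 11.0 and 1005 ± 67.4 (SD, n = 2 each), the latter 73.9% of the former, a log2 fold change of −0.44 (SE 0.06, limma, Benjamini-Hochberg adjusted p 0.000473).

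Scn2a, the alpha subunit of the proximal initial segment of young axons (chromosome 2, 65620771 to 65767447, plus strand), had 1206 and 1321 under control shRNA, against 1027 and 993.5 under DcpS shRNA. The groups did not overlap here either, although the controls were farther apart from each other than for Scn3a. Its log2 fold change was −0.32 (SE 0.06, limma, Benjamini-Hochberg adjusted p 0.00566), and the call ended without control 2 (adjusted p 0.0983).

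**Figure D1:**
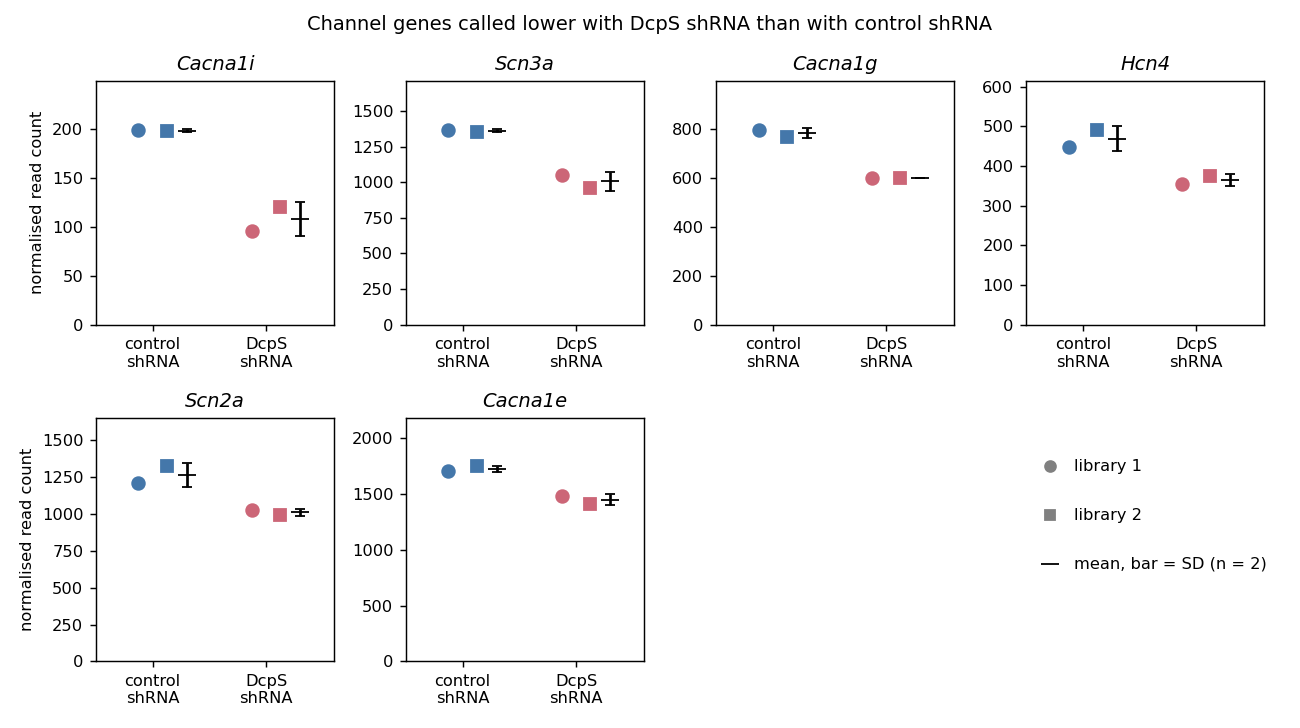
Normalised read counts of the 6 lower channel genes in each library (circles, library 1; squares, library 2), with group means and SD bars (n = 2), each axis starting at 0. In every panel both DcpS shRNA points lie below both control points.

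Scn8a, the alpha subunit of mature initial segments and nodes, had 1424 and 1511 under control shRNA, against 1431 and 1322 under DcpS shRNA, and the groups overlapped (log2 fold change −0.09, 95% interval −0.22 to 0.04). The order of the abundant alpha subunits by mean level per kb of exon differed between the groups. In the controls Scn3a was highest at 110 and 109 normalised reads per kb, followed by Scn2a at 94.7 and 104 and Scn8a at 90.3 and 95.8, and the last pair overlapped. With DcpS shRNA Scn8a was highest by mean at 90.8 and 83.9, then Scn3a at 84.5 and 76.9 and Scn2a at 80.6 and 78.0, and neighbours in that order overlapped. Among all alpha subunit reads per kb, Scn8a took 26.8% and 27.2% under control shRNA, against 30.2% and 30.1% under DcpS shRNA, while Scn3a took 32.6% and 30.9% and then 28.1% and 27.6%. These levels rest on the union of annotated exons, so an isoform with a shorter 3′ UTR would be understated. The change of order also rests on the division by length. By mean normalised reads Scn8a was highest in both groups, at 1467 against 1360 for Scn3a and 1263 for Scn2a under control shRNA. Under DcpS shRNA the means were 1376, 1005 and 1010.

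Scn1a, the alpha subunit prominent in fast-spiking interneurons, had 369.6 and 374.3 under control shRNA, against 313.5 and 287.2 under DcpS shRNA. Both DcpS shRNA values were below both controls, but the test was missed at an adjusted p of 0.0680 (limma, Benjamini-Hochberg), with a log2 fold change of −0.31 (SE 0.09). Scn7a, a sodium-sensing channel of glia and other non-neuronal cells, had 11.4 and 11.3 under control shRNA, against 3.63 and 2.23 under DcpS shRNA. That is 12 and 11 reads against 4 and 2, and the gene was kept by the filter through its control reads. Its log2 fold change of −1.67 (SE 0.55) also missed the test (limma, Benjamini-Hochberg adjusted p 0.0957). Scn9a, the alpha subunit of nociceptors, lay between 20.9 and 26.8 in the 4 libraries with overlapping groups. Scn4a, the skeletal muscle alpha subunit, had 1 to 3 reads per library. Scn11a, a sensory neuron alpha subunit (chromosome 9, 119753759 to 119825456, minus strand), had 1 read in each control and 9 and 2 under DcpS shRNA, too few to test.

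The sodium channel genes Scn3a, Scn2a, Scn1a, Scn9a and Scn7a lie together on chromosome 2, and 3 other protein-coding genes between them were tested. Csrnp3, a nuclear protein gene, had 2253 and 2514 under control shRNA, against 2250 and 2137 under DcpS shRNA (log2 fold change −0.12, SE 0.06, limma, Benjamini-Hochberg adjusted p 0.317). Ttc21b, a ciliary transport gene, had 488.4 and 548.7 under control shRNA, against 476.1 and 406.8 under DcpS shRNA (−0.23, SE 0.09, limma, Benjamini-Hochberg adjusted p 0.179). Neither gene was called, although in each of them both DcpS shRNA libraries lay below both controls. Galnt3, a glycosyltransferase gene, was between 12.4 and 19.5 in the 4 libraries with overlapping groups. Between Scn3a and Scn7a the called genes were therefore Scn3a and Scn2a. Scn1a (−0.31) and Scn7a (−1.67, on few reads) also had both DcpS shRNA libraries below both controls but missed the test. Whether the change of Scn3a and Scn2a differs from that of Scn1a, Scn7a or the 3 genes between was not tested.

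**Figure D2:**
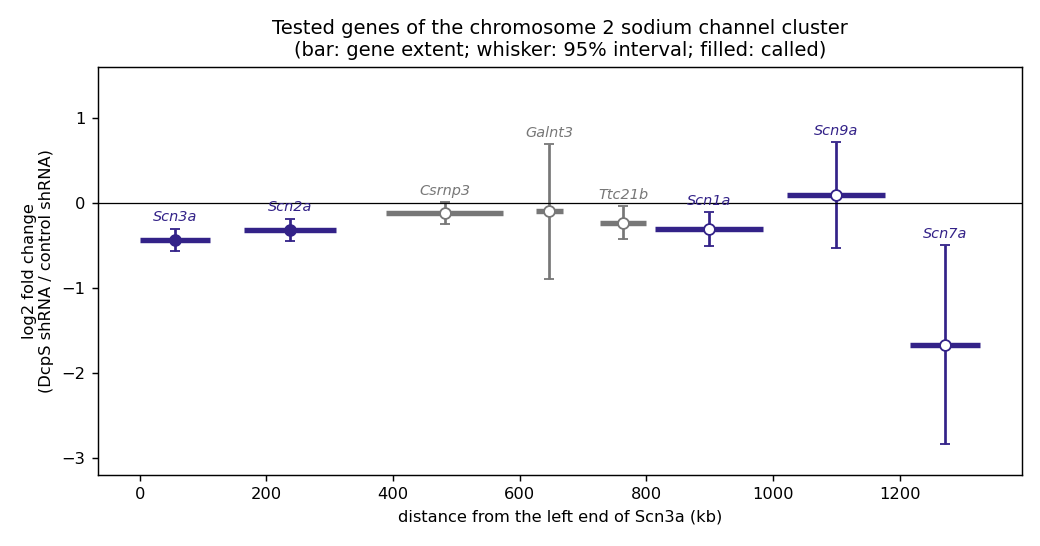
Log2 fold changes (DcpS shRNA over control shRNA) of the tested genes of the chromosome 2 sodium channel cluster against distance from the left end of Scn3a in kb. Horizontal bars span each gene, whiskers are 95% intervals and filled points were called: Scn3a (−0.44) and Scn2a (−0.32) are the 2 filled points.

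Sodium channel beta subunits were not called in either direction. Scn3b, the beta subunit with the most reads per kb in these neurons, had 1782 and 1896 under control shRNA, against 1724 and 1913 under DcpS shRNA, and the groups overlapped fully (log2 fold change −0.02, 95% interval −0.15 to 0.11). Scn2b had 134.0 and 132.3 under control shRNA, against 119.9 and 128.5 under DcpS shRNA. Scn4b had 0 to 4 reads per library and was not tested. The library at 0 reads could hold up to 3 by counting error alone.

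Of 8 tested calcium channel alpha1 genes 3 were lower (the T-type genes Cacna1i and Cacna1g and the R-type gene Cacna1e) and 0 were higher. Over all genes tested 3.65% were lower and 2.14% higher. The T-type genes encode low-voltage pores that carry rebound bursts. Cacna1i (chromosome 15, 80287238 to 80398279, plus strand) had 199.5 and 197.9 under control shRNA, against 96.3 and 120.7 under DcpS shRNA. It was at 54.6% of its control mean, with a log2 fold change of −0.88 (SE 0.14, limma, Benjamini-Hochberg adjusted p 0.00115), and was the furthest down of the 6 lower members.

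Cacna1g, also T-type (chromosome 11, 94408391 to 94474198, minus strand), had 798.1 and 769.1 under control shRNA, against 600.6 and 601.2 under DcpS shRNA. The groups were separated by far more than the spread within each of them. The mean was 784 ± 20.5 under control shRNA, against 601 ± 0.461 under DcpS shRNA (SD, n = 2 per group; log2 fold change −0.38, SE 0.07, limma, Benjamini-Hochberg adjusted p 0.00286). The third T-type gene, Cacna1h, was the most abundant alpha1 transcript per kb. It was not called with the main settings, and its change varied with the library left out. It had 2138 and 2176 under control shRNA, against 2074 and 1861 under DcpS shRNA (log2 fold change −0.13, 95% interval −0.26 to −0.01, limma, Benjamini-Hochberg adjusted p 0.238). The log2 fold change of Cacna1h was −0.21 without DcpS shRNA 1 and −0.06 without DcpS shRNA 2. It was −0.15 without control 1 and −0.12 without control 2. Whether the change of Cacna1h differs from those of Cacna1g and Cacna1i was not tested.

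Cacna1e, the R-type pore (chromosome 1, 154390731 to 154884501, minus strand), had 1707 and 1749 under control shRNA, against 1486 and 1415 under DcpS shRNA. Both DcpS shRNA libraries were below both controls, at 83.9% of the control mean (log2 fold change −0.25, SE 0.06, limma, Benjamini-Hochberg adjusted p 0.0129). Leaving out control 1 ended this call (adjusted p 0.0506 by limma), as did leaving out control 2 (0.122) or using DESeq2 (0.0700). Its 3′ UTR holds the 7-base word shown above.

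The remaining high-voltage pores were not called. Cacna1b, the N-type pore of presynaptic terminals, had 1883 and 1861 under control shRNA, against 1865 and 1729 under DcpS shRNA. Cacna1a, the P/Q-type pore, had 476.0 and 572.2 and then 600.6 and 581.1, and Cacna1d, an L-type pore, had 883.7 and 1026 and then 1121 and 1042. For both genes the DcpS shRNA libraries were above the controls (log2 fold changes 0.18 and 0.18, limma, Benjamini-Hochberg adjusted p 0.294 and 0.185). Cacna1c, the L-type pore that couples activity to transcription, had 1810 and 1895 under control shRNA, against 1923 and 1803 under DcpS shRNA (log2 fold change 0.01, 95% interval −0.11 to 0.13). Cacna1s and Cacna1f, the L-type pores of skeletal muscle and retina, had 0 to 8 and 1 to 5 reads per library and were not tested.

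**Figure D3:**
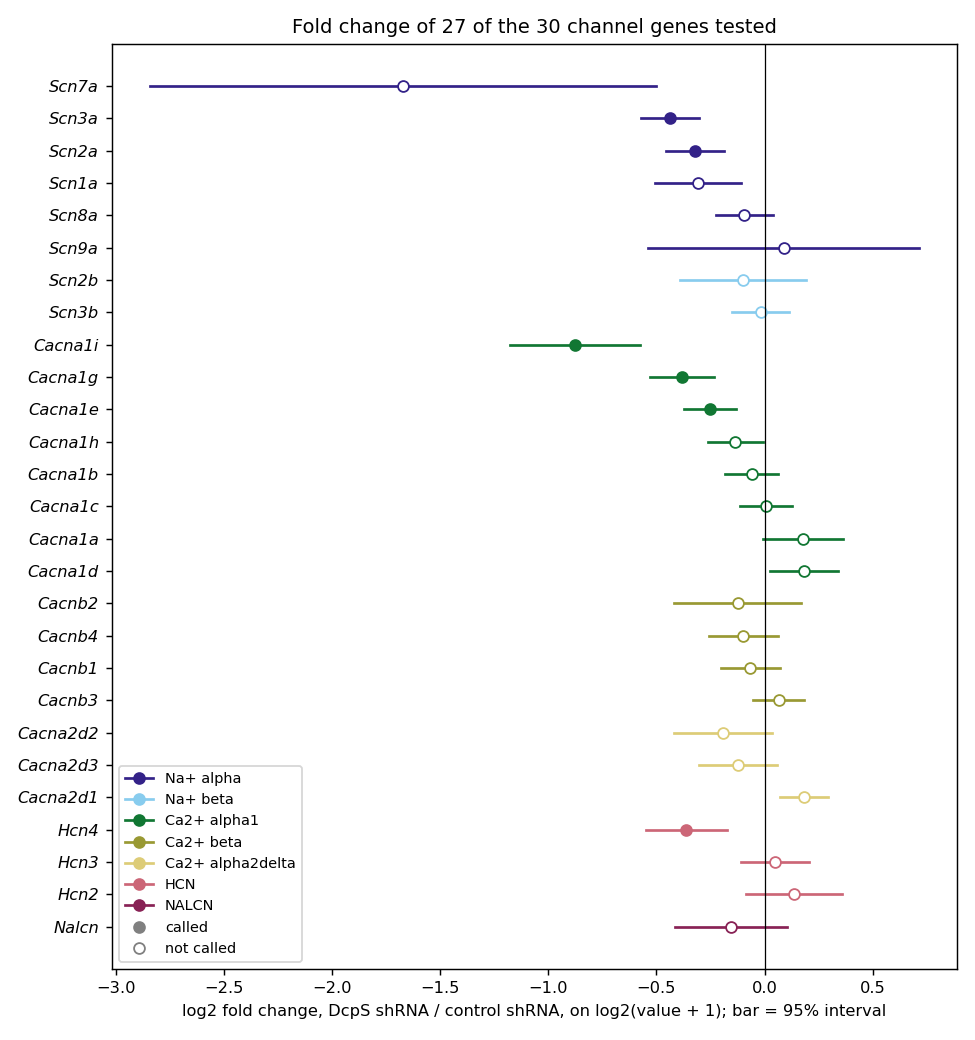
Log2 fold changes with 95% intervals of 27 of the 30 tested channel genes, coloured by subunit family, filled where called at an adjusted p under 0.05. The filled points are Scn3a, Scn2a, Cacna1i, Cacna1g, Cacna1e and Hcn4, all left of 0.

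Auxiliary calcium channel subunits were not called. Cacnb3, the beta subunit with by far the most reads per kb, had 3189 and 2914 under control shRNA, against 3198 and 3180 under DcpS shRNA (log2 fold change 0.07, 95% interval −0.05 to 0.18). Cacnb1 was at 95.5%, Cacnb4 at 93.5% and Cacnb2 at 92.2% of the control mean. These subunits bind the pore from the inside and shield it from degradation.

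Cacna2d1, the alpha2delta subunit that binds gabapentin and thrombospondin, came closest to a call among the auxiliary subunits. It had 2645 and 2633 under control shRNA, against 3067 and 2930 under DcpS shRNA, so both treated libraries lay above both controls. The log2 fold change was 0.18 (SE 0.05, limma, Benjamini-Hochberg adjusted p 0.0507), just outside the threshold. It was called without a filter on low values (limma, Benjamini-Hochberg adjusted p 0.0412) and with the replicate block (0.0267). It was not called by edgeR (adjusted p 0.0507) or DESeq2 (0.187), or by limma with TMM scaling (0.0564). Leaving out 1 library at a time gave log2 fold changes from 0.15 (without DcpS shRNA 1) to 0.22 (without DcpS shRNA 2). Cacna2d2 and Cacna2d3, the other alpha2delta genes tested, were at 87.4% and 91.7% of the control mean. Cacna2d4, a retinal alpha2delta subunit, had 4 to 15 reads per library and was not tested.

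HCN channels gave 1 call, Hcn4, which opens slowly and is best known as the pacemaker channel of the heart (chromosome 9, 58823412 to 58863175, plus strand). Its values were 446.6 and 491.2 under control shRNA, against 353.4 and 375.5 under DcpS shRNA. The highest DcpS shRNA value was below the lowest control, and the mean was 77.7% of control (log2 fold change −0.36, SE 0.09, limma, Benjamini-Hochberg adjusted p 0.0228). Leaving out control 2 ended this call (adjusted p 0.217 by limma), as did leaving out DcpS shRNA 1 (0.0597) or using DESeq2 (0.170).

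Hcn3, the HCN gene with the most reads per kb, had 600.5 and 565.1 under control shRNA, against 606.9 and 597.9 under DcpS shRNA. Part of it cannot be separated from Pklr on the opposite strand if counting ignored strand, since 17.1% of its exonic bases are shared, and Pklr had 6.15 to 10.1 normalised reads. Hcn2 had 249.9 and 247.2 under control shRNA, against 258.0 and 289.4 under DcpS shRNA. In the sum of HCN reads per kb, Hcn4 took 24.0% and 26.6% under control shRNA, against 19.8% and 20.1% under DcpS shRNA.

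**Figure D4:**
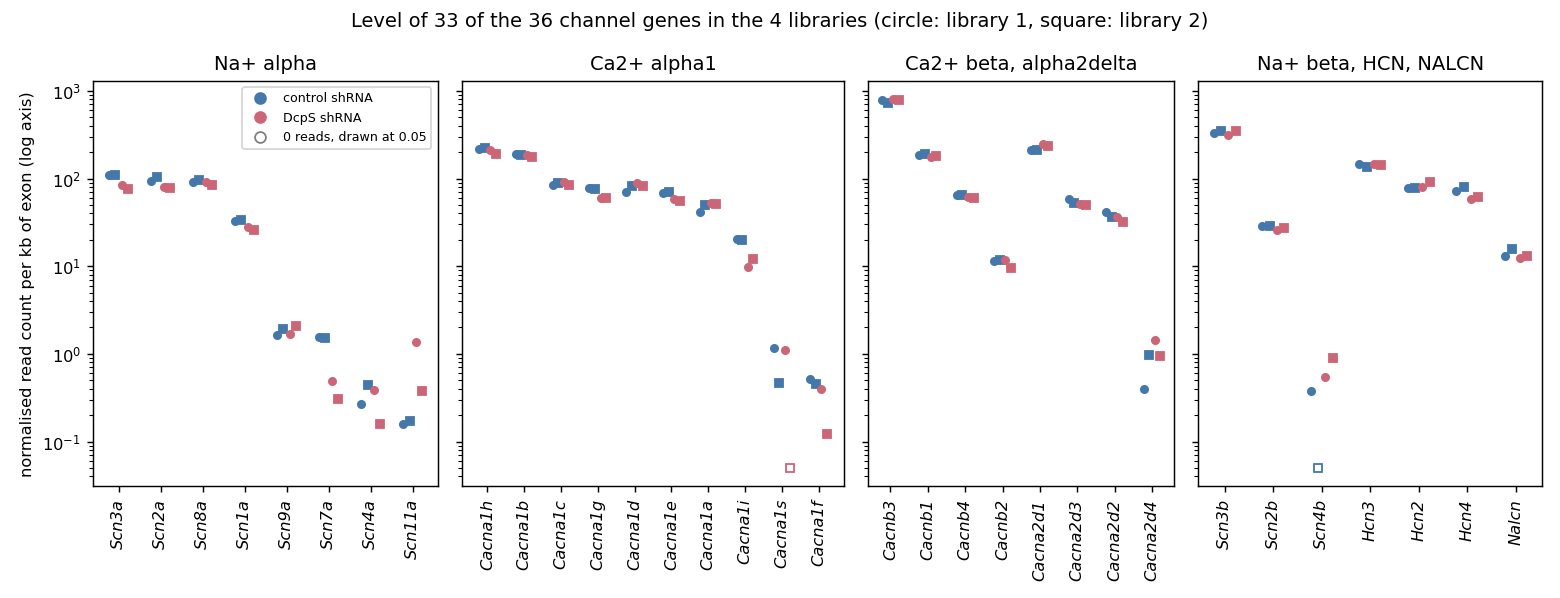
Normalised read count per kb of annotated exon (log axis) of 33 of the 36 channel genes in the 4 libraries, by subunit family (blue, control shRNA; red, DcpS shRNA; open symbols, 0 reads drawn at 0.05). Cacnb3 was highest in every library, at 727 to 798, and Scn4b and Cacna1s each have 1 library at 0.

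Nalcn was not called, with 192.9 and 229.7 under control shRNA, against 184.4 and 193.3 under DcpS shRNA. Its partner Unc79, a large scaffold of the leak channel complex, was lower: 1303 and 1253 under control shRNA, against 947.6 and 937.6 under DcpS shRNA. The groups did not overlap and the mean was 73.8% of control (log2 fold change −0.44, SE 0.06, limma, Benjamini-Hochberg adjusted p 0.000269). Unc80, which joins Unc79 in that complex, had 215.7 and 219.5 and then 232.6 and 202.3, and Fam155a, an extracellular chaperone of the complex, was not called either. Of the 3 leak channel partners tested 1 was therefore lower and 0 higher, beside 3.65% and 2.14% of all genes tested.

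Sodium channel partners were lower in 3 of 13 tested genes, higher in 0, with a median log2 fold change of −0.05. The shares over all genes tested were 3.65% lower and 2.14% higher. Fgf13, an intracellular fibroblast growth factor homologue that binds the alpha subunit tail and microtubules, had 1381 and 1277 under control shRNA, against 1025 and 1030 under DcpS shRNA. It was at 77.3% of the control mean (log2 fold change −0.37, SE 0.06, limma, Benjamini-Hochberg adjusted p 0.00151). Nrcam, an adhesion molecule of initial segments and nodes, was lower by −0.30 (SE 0.05, limma, Benjamini-Hochberg adjusted p 0.00204), and so was Tnr, the matrix glycoprotein tenascin-R, by −0.24 (SE 0.07, adjusted p 0.0379). The initial segment anchors Ank3 (−0.11), Sptbn4 (0.06) and Nfasc (−0.05) were not called. Nrcam was not called once control 2 was left out (adjusted p 0.0698 by limma). Tnr was not called without control 1 (adjusted p 0.362 by limma) or DcpS shRNA 2 (0.0696), nor by DESeq2 (0.215).

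Calcium channel partners were called in both directions, 2 lower and 2 higher of 23 tested, with a median of 0.08. Among all genes tested 3.65% were lower and 2.14% higher, so counts this small say little about these partners as a group. Cabp1, a calmodulin-like protein that binds L- and P/Q-type pores, had 854.2 and 865.5 under control shRNA, against 1186 and 1064 under DcpS shRNA. Both treated libraries were above both controls (log2 fold change 0.38, SE 0.07, limma, Benjamini-Hochberg adjusted p 0.00211). Calm2, a calmodulin gene, was higher by 0.19 (SE 0.05, limma, Benjamini-Hochberg adjusted p 0.0486), a call that edgeR, DESeq2 and TMM scaling did not make and that also ended without control 1 (0.244), control 2 (0.426) or DcpS shRNA 2 (0.0604).

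The lower calcium channel partners were Gem and Cbarp, whose products restrain calcium channels. Rem2, a GTPase related to Gem, was not called and its groups overlapped (log2 fold change −0.15, limma, Benjamini-Hochberg adjusted p 0.690). Rrad and Rem1, also related to Gem, were too low to test. Whether genes with this function change as a group was not tested. Gem, a small RGK-family GTPase that binds beta subunits, had 129.2 and 106.7 under control shRNA, against 69.1 and 84.9 under DcpS shRNA (log2 fold change −0.61, SE 0.17, limma, Benjamini-Hochberg adjusted p 0.0465). Cbarp, a membrane protein that also binds beta subunits, had 1247 and 1153 under control shRNA, against 1020 and 1006 under DcpS shRNA (−0.24, SE 0.06, limma, Benjamini-Hochberg adjusted p 0.0298). Neither gene was called by DESeq2 or without control 1 (adjusted p 0.316 for Gem and 0.301 for Cbarp by limma), and Gem was not called without DcpS shRNA 1 (0.161). Rimbp2, which ties presynaptic calcium channels to the release machinery, was just outside the threshold (0.31, SE 0.09, limma, Benjamini-Hochberg adjusted p 0.0528). Of 4 HCN partners tested, among them Pex5l, a subunit that sets HCN trafficking, 0 were called at an adjusted p under 0.05 by limma.

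**Figure D5:**
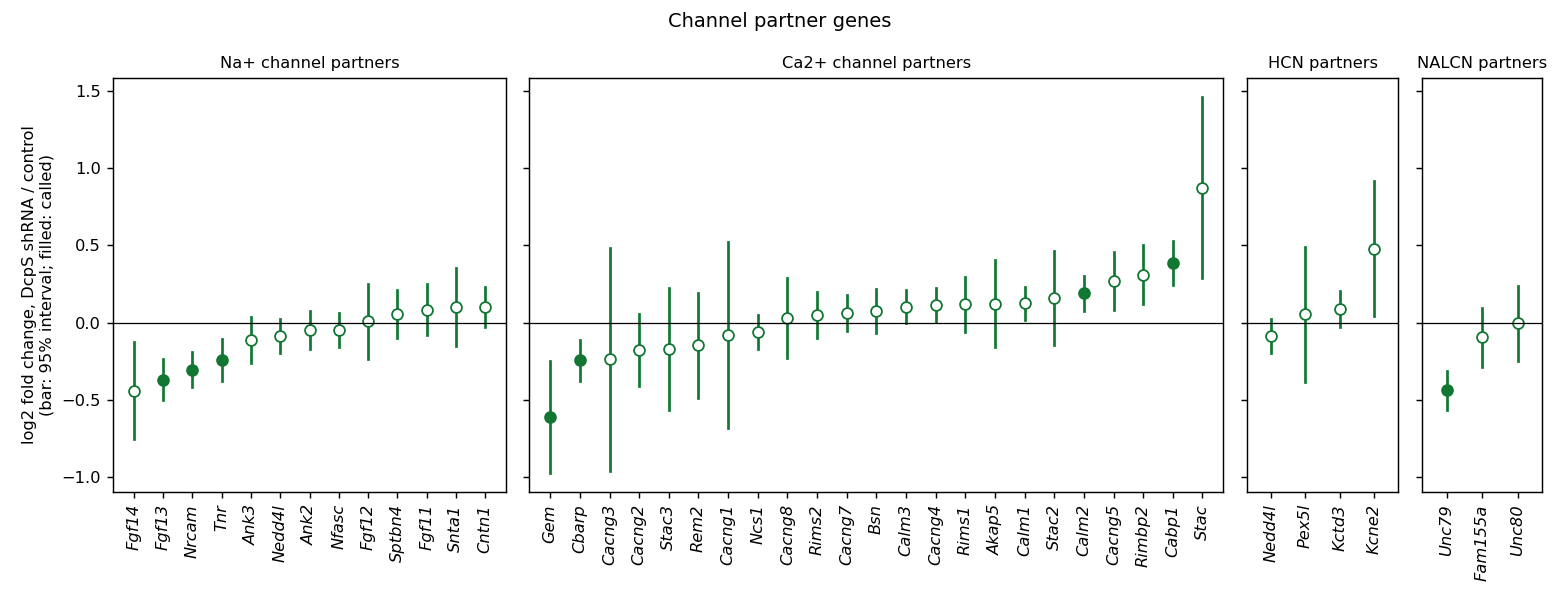
Log2 fold changes with 95% intervals of channel partner genes that passed the filter, by the channel they bind, filled where called. Filled points below 0 are Fgf13, Nrcam, Tnr, Gem, Cbarp and Unc79, and filled points above 0 are Calm2 and Cabp1.

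Markers of other cells moved under DcpS shRNA in the same libraries. All 9 fibroblast and matrix markers were lower, and their summed level went from 12445 and 13771 in the controls to 7563 and 7229. In bulk cultures, fewer cells of a type and less RNA per cell cannot be told apart. The summed neuron markers were 91800 and 91233 under control shRNA, against 88958 and 88747 under DcpS shRNA, with Snap25 and Syt1 lower (−0.26 and −0.22), Rbfox3 higher (0.24) and 7 of 10 not called. Leaving out control 1 ended the calls of Snap25 (adjusted p 0.102 by limma) and Syt1 (0.0563), and leaving out control 2 those of Syt1 (0.318) and Rbfox3 (0.310). Rbfox3 was also not called without DcpS shRNA 2 (adjusted p 0.0586 by limma), and DESeq2 called neither Syt1 (adjusted p 0.179) nor Rbfox3 (0.136). Astrocyte markers summed to 8641 and 8614 and then 8527 and 8742, with 3 lower and 1 higher of 7 tested. That sum rests mostly on Aldoc (higher, at 116% of its control mean) and Slc1a3 (not called, at 92.0%), while the median log2 fold change of the 7 was −0.43. Aqp4 was at 45.8%, Gfap at 51.1% and Gja1 at 62.9% of their control means, all called lower, and Aldh1l1, which was not called, at 74.1%. Summed interneuron markers went from 362.0 and 371.2 to 329.8 and 330.8 with 0 of 8 called. Summed oligodendrocyte lineage markers were 583.4 and 628.6 and then 562.4 and 576.6 (1 lower, 1 higher of 6 tested), with a median log2 fold change of −0.40. Summed microglia and macrophage markers were 165.3 and 179.5 and then 187.2 and 196.7 (1 higher of 5 tested), with a median of −0.25. Smooth muscle and mural markers summed to 133.0 and 139.5 and then 64.5 and 67.0 (1 lower of 4). Acta2 was called lower at 25.5% of its control mean, while Rgs5 (38.3%), Myh11 (98.3%) and Tagln (144%) were not called. Endothelial markers summed to 105.5 and 150.8 and then 86.3 and 87.2 (1 lower of 3). Kdr was called lower at 59.0% of its control mean, while Cdh5 (74.1%) and Pecam1 (192%) were not called. Skeletal and cardiac muscle markers Myod1, Myog, Des, Ckm and Actc1 were each at 0 to 4.47 normalised reads in every library, whereas Ryr1, which neurons also express, was at 654.9 to 772.5 and not called. Sensory neuron markers summed to 65.6 and 62.6 under control shRNA, against 90.9 and 82.7 under DcpS shRNA, 135% of the control mean without overlap. That sum rests mostly on the 2 sensory neuron markers that were tested, of which 0 were called by limma. Trpv1 had 0 to 4 reads per library. Single genes showed no overlap of the groups in 48.4% of all genes tested. The part of all these marker shifts in the channel values, the Scn11a reads included, was not tested.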

How the data were processed

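RNA sequencing libraries of 4 cultures were compared, 2 with control shRNA and 2 with DcpS shRNA. The submitters' processing notes name HISAT2 2.2.0, SAMtools 1.3.1, Picard, featureCounts and DESeq2 with build GRCm38, without roles or order. The gene annotation, the strand setting and the treatment of reads that fit several genes were not given in the sources used here. Values of close paralogues are therefore uncertain where reads fit both. The deposited signal is a gene count divided by 1 size factor per library: 100% of values were whole multiples of the column's smallest value (tolerance 0.001), and the implied factors equalled median-of-ratios size factors. This scaling would hide a shift of all transcripts together.

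The main test was limma 3.58.1 on log2(value + 1), with trend and robust empirical Bayes, in R 4.3.3, with 2 residual degrees of freedom. Fold changes on that scale understate changes of low genes. Genes passed edgeR's filterByExpr (minimum count 10) on recovered reads, and p-values were adjusted by Benjamini-Hochberg over 18110 genes, two-sided. An exact permutation test of 2 against 2 cannot give a p below 0.333. Alternatives used edgeR 4.0.16 and DESeq2 1.42.0 on recovered reads, pseudocount 5, no filter, other scalings, a replicate block and leaving out each library. The count of 0 limit is 3 reads per library. Values per library were given for called members, for the most abundant members of each family and for members near 0, and partner genes that were called were named. The members and lists, and these rules, were chosen with earlier results of these data known. Exon lengths and positions are from GENCODE M21 (GRCm38). Values of some genes of the lists are not reported here.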

Additional observations from a re-analysis of the deposited data

How the results depend on the processing

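The count of lower channel genes was 6 with the main settings and stayed within 1.5 times of that (4 to 8) under each alternative that kept all 4 libraries. Leaving out 1 library at a time gave 3 to 7 lower genes, with 3 without control 2. The count of higher genes, 1 with the main settings, was 2 without a filter on low values and 1 to 2 leaving out 1 library at a time, the added gene being Cacna2d1. The calls of Scn3a, Cacna1g and Cacna1i were kept under all 11 alternatives. With the replicate block the counts were 8 lower and 2 higher, adding Scn1a, Scn7a and Cacna2d1 to the called genes. Scn7a was kept by the filter through its control reads, so its lower call there is no support for a change. The labels do not say whether libraries with the same set number form pairs, and they were not taken as pairs. Deviations of libraries with the same number correlated at 0.04 over genes, which does not settle the question. Over all genes, DESeq2 called 311 lower and 137 higher, against 661 and 387 with the main settings, and the replicate block 980 and 646. Without control 1 the numbers were 433 and 237, and without control 2 they were 369 and 225.

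Values near 0 changed sign only on leaving out a library, and none of these genes was called: the log2 fold change ran from −0.039 to 0.054 for Cacna1c, −0.27 to 0.018 for Cacnb2, −0.093 to 0.058 for Scn3b, −0.055 to 0.23 for Scn9a and −0.41 to 0.21 for Galnt3. The cause was not tested. Depth limits the 6 members that did not pass the filter, which had at most 15 reads in any library.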

Other observations

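The L-type genes Cacna1c and Cacna1d each overlap a gene for a decapping activator on the opposite strand, Dcp1b and Dcp1a, with 0 shared exonic bases. Dcp1b had 480.8 and 491.2 normalised reads under control shRNA, against 511.5 and 535.3 under DcpS shRNA (log2 fold change 0.11, SE 0.08, limma, Benjamini-Hochberg adjusted p 0.516). Dcp1a had 970.1 and 948.6 and then 940.4 and 910.8 (−0.05, SE 0.06, adjusted p 0.726). Neither gene was called, and neither were Cacna1c and Cacna1d.

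The summed sodium channel alpha level per kb of exon came to 337 and 352 under control shRNA, against 300.3 and 278 under DcpS shRNA, 84.0% of the control mean. The summed sodium channel beta level was 393 and 421 and then 385 and 434. Summed calcium channel beta and alpha2delta levels were 102% and 106% of the control means, and the summed alpha1 level 93.7%.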
